A study of Rattus norvegicus with 12 samples.

Results

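The miR-30 family was followed through the liver of rats given caffeine, dextromethorphan, both drugs or vehicle. Its members are the entries of the deposited microRNA table whose gene name carries the microRNA number 30, whatever the letter or copy suffix. The rule found 6 genes among 444 listed features: Mir30a, Mir30b, Mir30c1, Mir30c2, Mir30d and Mir30e. Of these, 5 were above 0 and were tested, and Mir30e was listed at 0 in all 12 libraries. The animals were male Sprague-Dawley rats (Jcl:SD, an outbred stock), 7 weeks old when 5 days of oral dosing began, and liver was taken 1 h after the last dose. The CAF+DEX group received caffeine at 120 mg/kg with dextromethorphan hydrobromide monohydrate at 100 mg/kg, the CAF group caffeine at 120 mg/kg, the DEX group dextromethorphan hydrobromide monohydrate at 100 mg/kg, and the Control group the sterile distilled water in which all drugs were dissolved. Each group had 5 rats per the labels, and 3 libraries per group are analysed here. Nothing ties a library to a rat, so the spread behind the p-values is that among samples and may be technical.

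MicroRNAs are cut from a hairpin transcript into short mature strands, named 5p and 3p after the arm they come from. Bases 2 to 8 of the strand, the seed, do most of the pairing with messenger RNAs, so microRNAs with the same seed share many targets. The miR-30 family is abundant in many epithelial and parenchymal tissues. In mouse liver miR-30c lowers secretion of lipoproteins through the lipid transfer gene Mttp. In human cells miR-30a lowers the autophagy protein Beclin 1. In zebrafish a miR-30 family member acts in bile duct development.

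The mature strands are shown first because the seed defines the family and because 2 of the genes make the same strand, which decides what the table can tell apart. Capitals mark the seed, and all sequences are from RefSeq on build GRCr8. Of the 6 members 4 matched the RefSeq sequence table by symbol, and Mir30b and Mir30d did not. The 5p strands of the matched members carry 1 seed, which Mir384, a gene outside the family by name, carries too. Of the 693 mature strands named in the RefSeq sequence table, which lacks Mir30b and Mir30d, 4 carry this seed and are printed here.
rno-miR-30a-5p: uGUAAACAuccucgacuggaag
rno-miR-30e-5p: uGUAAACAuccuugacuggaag
rno-miR-30c-5p: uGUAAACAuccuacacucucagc
rno-miR-384-5p: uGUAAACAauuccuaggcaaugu
The strands of miR-30e-5p and miR-30a-5p differ at a single base, U13C, counted from the 5′ end with the miR-30e base first. The strand rno-miR-30c-5p comes from both Mir30c1 and Mir30c2 and differs from miR-30a-5p by 5 substitutions in the 22 bases compared, all past the seed.

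The 3p strands separate the copies that the 5p strand cannot. The 3p seed of Mir30a differs from that of the Mir30c copies, whose 3p strands share a seed but differ from each other past it.
rno-miR-30a-3p: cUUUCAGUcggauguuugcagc
rno-miR-30c-1-3p: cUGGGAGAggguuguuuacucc
rno-miR-30c-2-3p: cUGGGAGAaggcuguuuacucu
From miR-30c-1-3p to miR-30c-2-3p the substitutions are G9A, U12C and C22U. The hairpins of Mir30c1 and Mir30c2 share an unbroken run of 28 bases that holds the whole 5p strand of 23 bases, so a read of miR-30c-5p can be placed at either gene.

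The genes lie in 3 pairs in the deposited table (build rn7). Mir30a (ENSRNOG00000035646, chr9:25737600-25737670, + strand) and Mir30c2 (ENSRNOG00000035562, chr9:25757342-25757425, + strand) are separated by 19671 bases. Mir30d (ENSRNOG00000035611, chr7:100136391-100136472, - strand) and Mir30b (ENSRNOG00000053467, chr7:100132589-100132675, - strand) are separated by 3715 bases. Mir30c1 (ENSRNOG00000035567, chr5:134349237-134349325, - strand) and Mir30e (ENSRNOG00000035640, chr5:134352232-134352323, listed on the + strand) are separated by 2906 bases. No other listed feature lay within 50000 bases of a member. In the RefSeq gene table of GRCr8 the span of Nfyc, which encodes a subunit of the transcription factor NF-Y, holds Mir30c1 and Mir30e, the long non-coding gene LOC102551574 holds Mir30d and Mir30b, the long non-coding gene LOC134480562 and the pseudogene Rbx1-ps1 hold Mir30c2, and no listed gene spans Mir30a. Whether a member lies in an exon or an intron of these genes was not analysed here.

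Values are FPKM, reads scaled to the gene's length and to the library's total on the listed features, so they are relative levels within a library. Log2 fold changes are differences of log2(FPKM + 3.80), and a feature was called at a limma adjusted p under 0.05. Depth, recovered from the FPKM, was 3145320 to 3360465 reads per CAF+DEX library, 2863572 to 3107874 per CAF library, 2941725 to 3363795 per DEX library and 3103016 to 3418568 per Control library. Members above 0 had 12834 reads or more in every library. Beside the tissue label, 8 hepatocyte microRNA genes were read, Mir192 and Mir148a among them, with Mir194-1 and Mir194-2 counted as 2. They were above 0 in every library and together took 26.3 to 29.3% of reads. No other tissue was compared, so these values do not tell liver from other tissues.

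The family took 5.46 ± 0.22% of reads in CAF+DEX, 5.59 ± 0.12% in CAF, 5.32 ± 0.54% in DEX and 5.18 ± 0.18% in Control (SD, n = 3 each). By library it ran from 4.96% in DEX library 2 to 5.95% in DEX library 1, so the extremes of the series stood in 1 group. The 3 CAF libraries, at 5.52 to 5.73%, lay above the 3 Control libraries, at 5.00 to 5.35%. The CAF+DEX libraries, at 5.2 to 5.7%, overlapped Control, as did the DEX libraries. Among the 293 single features tested, 6.48% lay higher without overlap in CAF against Control. The family sum was not tested. Mir30a held 40.9 to 47.3% of the family's reads, Mir30d 20.0 to 23.2%, Mir30b 15.7 to 19.9%, Mir30c2 7.92 to 8.90% and Mir30c1 7.68 to 8.72%. The order per length was the same in 12 of 12 libraries: Mir30a, Mir30d, Mir30b, Mir30c2, Mir30c1.

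Mir30a was the 8th or 9th most abundant feature of every library. Its mean over the 12 libraries was 330891 ± 19312 FPKM (SD), next below Mir16 at 424358 FPKM and next above Mir101a, a microRNA abundant in hepatocytes, at 327295 FPKM. Mir30d averaged 145514 ± 8328 FPKM, between Mirlet7c1 at 149711 and Mirlet7g at 143020 FPKM. Mir30b averaged 110948 ± 13780 FPKM, between Mir26a at 122933 and Mir142, a leukocyte microRNA, at 103874 FPKM. Mir30c2 averaged 53035 ± 3851 FPKM and Mir30c1 48775 ± 3632 FPKM, at ranks 36 and 37, between Mir125a at 61397 and Mir3559 at 43392 FPKM. The ranges of Mir30a and Mir30d did not overlap, nor did those of Mir30b and Mir30c2. Those of Mir30d and Mir30b overlapped slightly, and those of the Mir30c copies overlapped for most of their length. Mir384, which carries the same seed, was near the floor with 9.90 FPKM on average, at most 7 reads in a library, and above 0 in 11 of 12 libraries. It was not called in any comparison below.

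**Figure D1:**
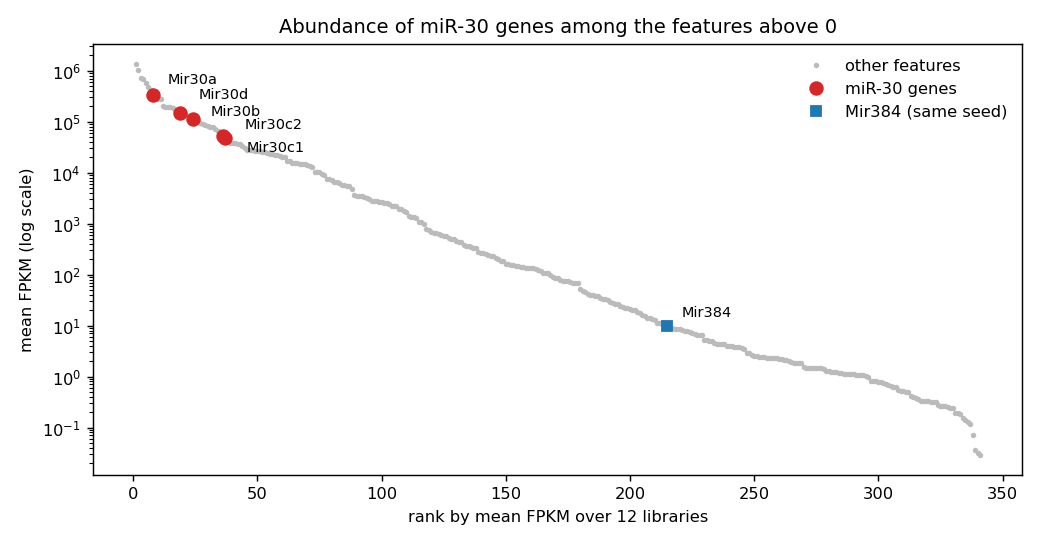
Mean FPKM over 12 libraries on a log axis against rank, for the 341 features above 0 in at least 1 library. The 5 detected miR-30 genes (red) lie between ranks 8 and 37, and Mir384 (blue square), with the same seed, has a mean of 9.90 FPKM.

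The copies Mir30c2 and Mir30c1 differed in level by a small, steady amount and could not be told apart by their pattern over the libraries. Mir30c2 had 1.02 to 1.03 times the reads of Mir30c1 in every library, a surplus of 291 to 423 reads over more than 12834. Their log2 FPKM ratio was 0.12 ± 0.01 (SD, n = 12), which includes the difference in annotated length (84 and 89 bases). Across libraries the log2 values of the copies had a Pearson r of 0.999 and a Spearman rho of 1. Counts of 5 genes below include both copies and so hold at most 4 separate signals. Recovered reads of Mir30a, Mir30d and Mir30b were not always whole either, with 76572.33, 37448.67 and 30500.53 in CAF+DEX library 1. Whether these genes share reads with each other or with the Mir30c copies was not tested. The strands of Mir30b and Mir30d were not compared. Medians are given over the 5 genes and, with the reads of the copies summed into 1 feature, over the 4 signals. Mir30c2 is given in full.

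Mir30e was listed at 0 in 12 of 12 libraries, while its relative Mir30a, whose 5p strand differs at U13C, was among the most abundant features. The deposited table places Mir30e on the + strand, and RefSeq places it on the - strand beside Mir30c1, with the same distance of 2995 bases between the starts of both genes in the table and in RefSeq. Strand differed from RefSeq for 6 of 363 features that matched by symbol. Of these 6, Mir30e, Mir218-1 and Mirlet7f-1os were listed at 0 throughout, and Mir210, Mir219-2 and Mir3553 averaged 0.25, 8.42 and 440 FPKM. Of the 357 features on the same strand, 82 (23.0%) were listed at 0 throughout. The sources used here do not give the strand setting of the counting, and the part of the strand in the 0 of Mir30e was not tested. No level of Mir30e in liver can be read from this table.

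The first question of the design is how each treatment differs from vehicle. No miR-30 gene passed the test in any of the 3 comparisons with Control. In CAF against Control all 5 tested genes had a positive log2 fold change, though Mir30a was at 0 under quantile normalization. Their median was 0.10 (0.11 over 4 signals), where the median of all 293 tested features was 0.00 and 50.9% were positive. In CAF+DEX against Control all 5 were positive as well, except that Mir30a and Mir30d were negative (-0.03 and -0.07) under quantile normalization. Their median was 0.09 (0.08 over 4 signals), against -0.01 over all features, of which 47.1% were positive. In DEX against Control 2 were positive and 3 negative, with a median of -0.001 (0.02 over 4 signals), and 4 of the 5 changed sign under quantile normalization. These comparisons share the Control libraries. Quantile normalization gives each feature the value of its rank in a library. Mir30a had rank 8 or 9 in every library, Mir30c2 35 or 36 and Mir30c1 37 or 38. A 0 or a change of sign of these genes under that scaling, here and below, therefore says little about their levels.

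Mir30a had 342885, 315131 and 339150 FPKM in CAF+DEX libraries 1, 2 and 5. It had 346890, 368183 and 318363 FPKM in CAF libraries 1, 2 and 5 and 350247, 315810 and 324030 FPKM in DEX libraries 1, 2 and 4. In Control libraries 1, 3 and 4 it had 298842, 318311 and 332853 FPKM. All 4 groups overlapped; the highest library was in CAF and the lowest in Control. The log2 fold change against Control was 0.07 in CAF+DEX (95% interval -0.08 to 0.22), 0.12 in CAF (-0.03 to 0.27) and 0.06 in DEX (-0.09 to 0.21), with limma adjusted p = 0.877, 0.505 and 0.965. Leaving out single libraries moved these values to 0.03 to 0.11 in CAF+DEX (without Control library 1 and CAF+DEX library 2), 0.07 to 0.18 in CAF (without CAF libraries 2 and 5) and 0.02 to 0.10 in DEX (without DEX library 1 and Control library 4).

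Mir30c2 had 53661, 50170 and 59985 FPKM in CAF+DEX libraries 1, 2 and 5. It had 56119, 55320 and 53262 FPKM in CAF libraries 1, 2 and 5 and 58072, 48432 and 47673 FPKM in DEX libraries 1, 2 and 4. In Control libraries 1, 3 and 4 it had 49659, 50869 and 53198 FPKM. The CAF libraries lay above all Control libraries, though the lowest CAF library and the highest Control library were close, while CAF+DEX and DEX overlapped Control. Mir30c1 had 45977 to 55471 FPKM in the CAF+DEX libraries and 49110 to 51685 FPKM in the CAF libraries, 43614 to 53435 FPKM in the DEX libraries and 45851 to 48720 FPKM in the Control libraries, with the same separation of CAF from Control. The log2 fold change of Mir30c2 against Control was 0.09 in CAF+DEX (95% interval -0.09 to 0.27), 0.10 in CAF (-0.08 to 0.28) and -0.001 in DEX (-0.18 to 0.18), with limma adjusted p = 0.869, 0.722 and 1. With the reads of the copies summed into 1 feature the value in CAF against Control was 0.10 (limma adjusted p = 0.713, where Mir30c2 had 0.505 to 0.973 over its alternatives). Without CAF+DEX library 5 the CAF+DEX value of Mir30c2 was 0.02, and without CAF+DEX library 2 it was 0.15.

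Mir30d had 145197, 147144 and 140741 FPKM in CAF+DEX libraries 1, 2 and 5. It had 154625, 134356 and 156225 FPKM in CAF libraries 1, 2 and 5 and 161762, 135206 and 142696 FPKM in DEX libraries 1, 2 and 4. In Control libraries 1, 3 and 4 it had 139698, 144171 and 144347 FPKM. The groups overlapped, and the CAF and DEX groups reached both higher and lower than Control. The log2 fold change against Control was 0.02 in CAF+DEX (95% interval -0.14 to 0.18), 0.05 in CAF (-0.11 to 0.21) and 0.03 in DEX (-0.12 to 0.19), with limma adjusted p = 1, 0.892 and 1. Without CAF library 5 the CAF value was 0.01 and without CAF library 2 it was 0.12, while the CAF+DEX value was 0.0008 without Control library 1 and 0.03 without CAF+DEX library 5.

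Mir30b, the neighbour of Mir30d, had the widest spread of the family. It had 111461, 109237 and 126303 FPKM in CAF+DEX libraries 1, 2 and 5. It had 123085, 102166 and 126422 FPKM in CAF libraries 1, 2 and 5 and 134457, 92629 and 91474 FPKM in DEX libraries 1, 2 and 4. In Control libraries 1, 3 and 4 it had 103815, 104530 and 105799 FPKM, a coefficient of variation of 0.96%, against 23.1% in DEX. DEX library 1 stood at 1.45 and 1.47 times the level of the other DEX libraries, which were below all Control libraries, and all CAF+DEX libraries were above all Control libraries. The log2 fold change against Control was 0.14 in CAF+DEX (95% interval -0.14 to 0.42), 0.16 in CAF (-0.13 to 0.44) and -0.004 in DEX (-0.29 to 0.28), with limma adjusted p = 0.869, 0.722 and 1. Without DEX library 1 the DEX value of Mir30b was -0.19 (limma adjusted p = 0.87, the smallest over 22 alternative settings, with a range of 0.87 to 1). Without CAF+DEX library 5 the CAF+DEX value was 0.08. Without CAF library 5 the CAF value was 0.10, and without CAF library 2 it was 0.25.

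**Figure D2:**
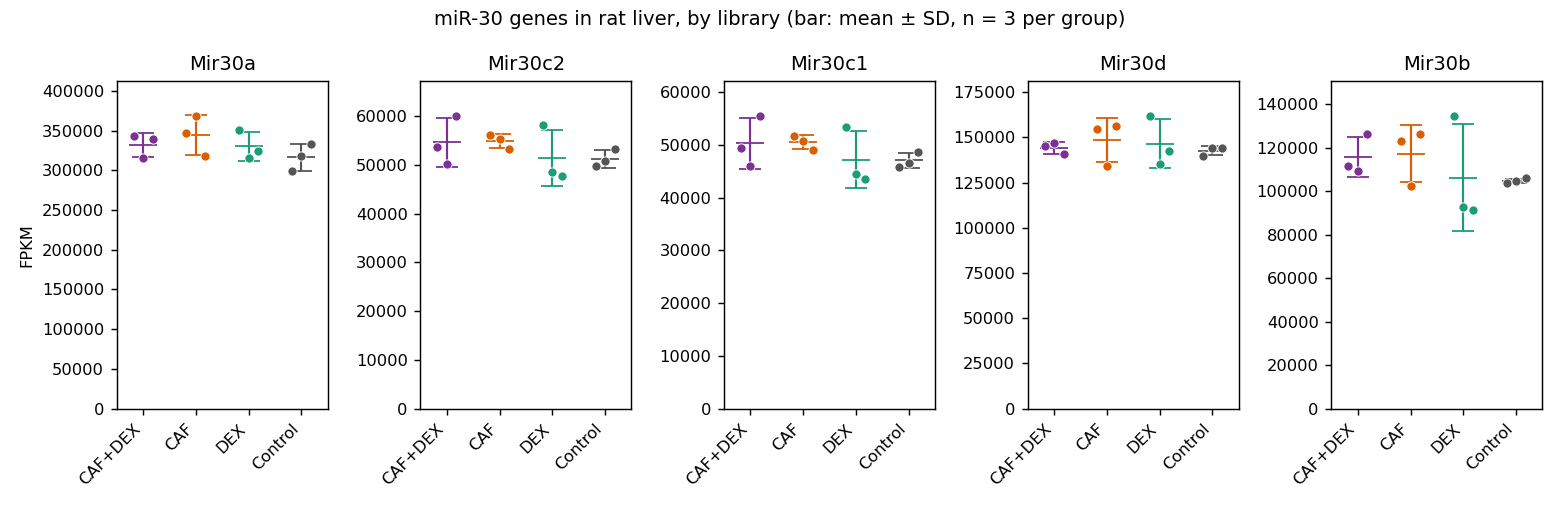
FPKM, on axes from 0, of the 5 detected miR-30 genes in each of the 12 libraries, with each group's mean and SD (n = 3 per group). The groups overlap for most genes, and Mir30b spreads from 91474 to 134457 FPKM within DEX against 103815 to 105799 FPKM within Control.

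By limma, 0 of 5 members were called in CAF against Control, where 0.683% of 293 features were called, and 0 of 5 in DEX against Control and in CAF+DEX against Control, where 0% of features were called. No member had an unadjusted p under 0.05 in these comparisons, whereas 38, 13 and 30 features did in CAF, DEX and CAF+DEX against Control. With limma-voom on recovered reads 0 members were called too. Over the 15 member values the 95% intervals ran from -0.29 to 0.44 on the log2 scale, that is from 0.82 to 1.36 times the Control level. Libraries did not overlap, higher than Control, for Mir30c2 and Mir30c1 in CAF, where 6.48% of all features did so, and for Mir30b in CAF+DEX, where 7.17% did so. The Mir30c copies can share reads, since they make the same 5p strand, and are counted as 1 of the 4 signals. No member lay below Control without overlap, against 7.51% of features in CAF+DEX, 8.19% in CAF and 4.1% in DEX, and none lay above Control without overlap in DEX, against 6.83% of features.

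The next comparisons added one drug to the other. Adding dextromethorphan to caffeine (CAF+DEX against CAF) gave small negative values for 5 of 5 members, from -0.05 in Mir30a (95% interval -0.20 to 0.10) to -0.01 in Mir30c1 (-0.19 to 0.17). Their median was -0.02 (-0.03 over 4 signals). Leaving out single libraries turned 4 of the 5 positive, and the Mir30c copies were at 0 under quantile normalization. Adding caffeine to dextromethorphan (CAF+DEX against DEX) gave 0.14 for Mir30b (95% interval -0.14 to 0.43), 0.09 for Mir30c2 (-0.09 to 0.27), 0.01 for Mir30a (-0.14 to 0.16) and -0.02 for Mir30d (-0.18 to 0.14), where Mir30a was -0.03 and Mir30c2 at 0 under quantile normalization and Mir30d 0.005 under median-of-ratios scaling. By limma 0 of 5 members were called in either comparison, with 0% of 293 features called in each and 15 and 23 features at an unadjusted p under 0.05. No member's libraries separated in either comparison. Over all features 3.41% lay higher and 3.75% lower without overlap in CAF+DEX against CAF, and 4.78% higher and 8.87% lower in CAF+DEX against DEX. Without DEX library 1 the value of Mir30b in CAF+DEX against DEX was 0.33 (limma adjusted p = 0.453, with 0.453 to 1 over the alternatives) and that of Mir30c2 was 0.18 (limma adjusted p = 0.537, with 0.537 to 1 over the alternatives). Without CAF+DEX library 5 the value of Mir30c2 was 0.02, and without DEX library 4 that of Mir30b was 0.05.

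The interaction is the caffeine difference with dextromethorphan (CAF+DEX minus DEX) less the caffeine difference without it (CAF minus Control). It was -0.11 for Mir30a (95% interval -0.32 to 0.10), -0.07 for Mir30d (-0.30 to 0.15), -0.01 for Mir30c2 (-0.26 to 0.24) and -0.01 for Mir30b (-0.41 to 0.39), and limma adjusted p was 0.991 for each. Of 293 features 0% were called, and 16 had an unadjusted p under 0.05. Without DEX library 1 it was positive for Mir30b (0.17), Mir30c2 (0.08) and Mir30d (0.002).

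The caffeine main effect, 6 libraries with caffeine against 6 without, gave the smallest adjusted p of the family. Mir30b had 0.15 (95% interval -0.05 to 0.35), Mir30c2 0.09 (-0.03 to 0.22) and Mir30c1 0.10 (-0.03 to 0.23), each with limma adjusted p = 0.497. Mir30a had 0.07 (-0.04 to 0.17), with -0.01 under quantile normalization, and Mir30d 0.02 (-0.09 to 0.13). None was called, 0.683% of features were called, both of them lower, and 42 features had an unadjusted p under 0.05. For no member did the 6 libraries with caffeine separate from the 6 without, as 0.683% of features did higher and 1.71% lower. Without DEX library 1 the value of Mir30b was 0.24 (limma adjusted p = 0.0856, with 0.0856 to 0.962 over the alternatives) and that of Mir30c2 was 0.14 (limma adjusted p = 0.198, with 0.198 to 0.962). The dextromethorphan main effect lay between -0.010 and 0.005 for all 5 members, 4 of which changed sign under quantile normalization, with limma adjusted p = 0.993 for each, and 0% of features were called (22 at an unadjusted p under 0.05). The F test over all 4 groups gave limma adjusted p = 0.832 to 0.991 for the members, with 0.341% of features called.

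**Figure D3:**
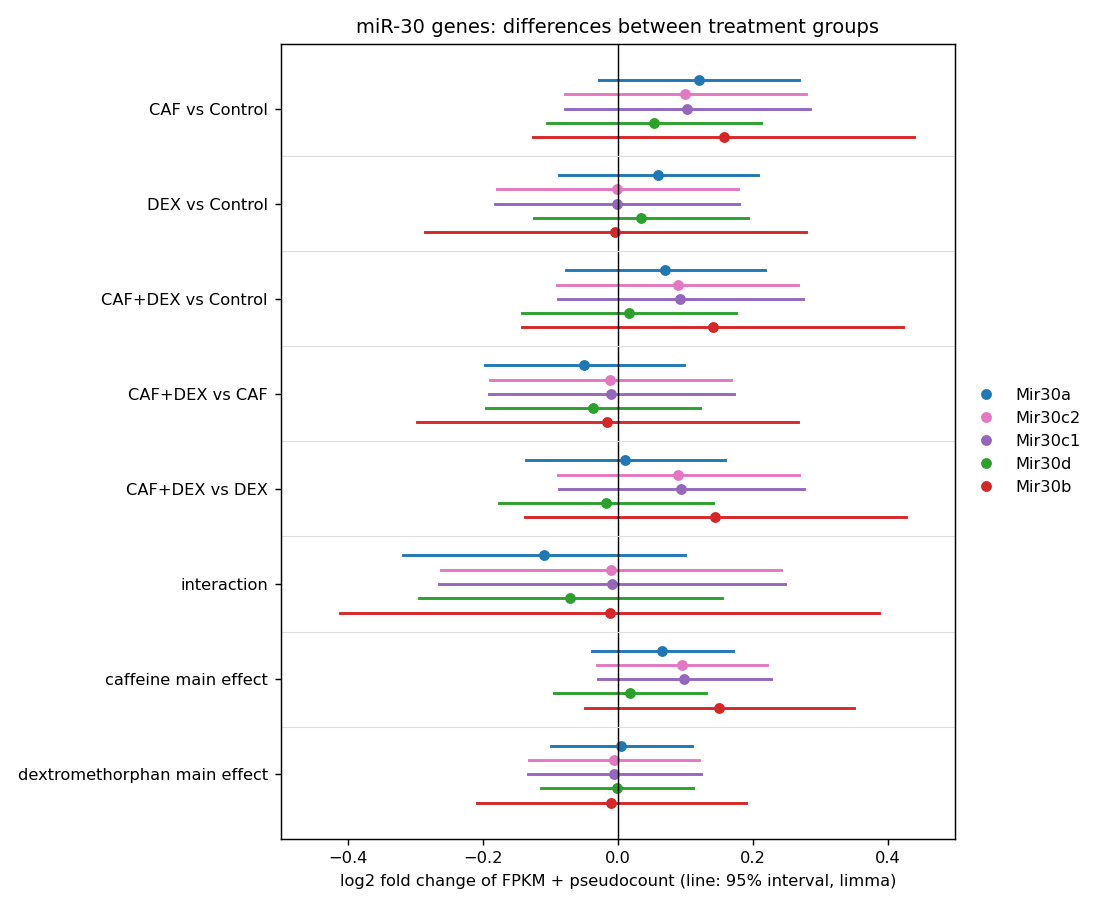
Log2 fold changes of the 5 detected miR-30 genes (points) with 95% intervals from limma (lines), for 5 comparisons between groups, the interaction and both main effects. Every interval includes 0, and those of Mir30b, such as -0.13 to 0.44 in CAF against Control, are the widest.

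Markers of the other cells in liver were read beside the family. The 6 leukocyte microRNAs were all above 0 and took 1.96 to 2.40% of reads in CAF+DEX livers and 1.75 to 2.15% in CAF livers, against 2.59 to 2.97% in DEX livers and 2.63 to 2.99% in Control livers, and 2 of 6 were called lower in CAF against Control. These were Mir142, with a log2 fold change of -0.60 (SE 0.11), and Mir146a, with -0.49 (SE 0.09), each with limma adjusted p = 0.0293, and they were the only features called there. Neither was called without CAF library 2, CAF library 5, Control library 1 or Control library 3. The 3 erythroid microRNAs took 0.0847 to 0.0940% of reads in CAF+DEX livers, 0.0602 to 0.114% in CAF livers, 0.0906 to 0.122% in DEX livers and 0.101 to 0.121% in Control livers, with 0 called. In whole liver, fewer cells of a type and less RNA per cell cannot be told apart. No member of the hepatocyte (8 tested), endothelial (1), stellate and smooth muscle (4) or biliary and other epithelial (3) lists was called in any comparison. Their median log2 fold changes in CAF against Control were 0.01, 0.19, 0.15 and -0.05. The endothelial value is that of Mir126a alone, near the floor at 41.0 FPKM on average and at most 24 reads in a library. In the stellate and smooth muscle list Mir214 had at most 36 reads. All listed markers were above 0 in every library. The part of these markers in the miR-30 values was not tested.

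The spread within groups differed between the miR-30 genes. The within-group SD on the log2 scale was 0.08 for Mir30a, 0.09 for Mir30d, 0.11 for Mir30c2 and Mir30c1 and 0.19 for Mir30b, where the median of the 50 most abundant features was 0.10. Mir30b had the 2nd largest SD of those 50, whose range was 0.04 to 0.19. DEX library 1 was above its group mean for every detected member, by 0.36 for Mir30b, 0.18 for Mir30c2, 0.15 for Mir30d and 0.09 for Mir30a on the log2 scale. CAF library 2 was high for Mir30a, by 0.10, and low for Mir30b and Mir30d, at -0.19 and -0.14.

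**Figure D4:**
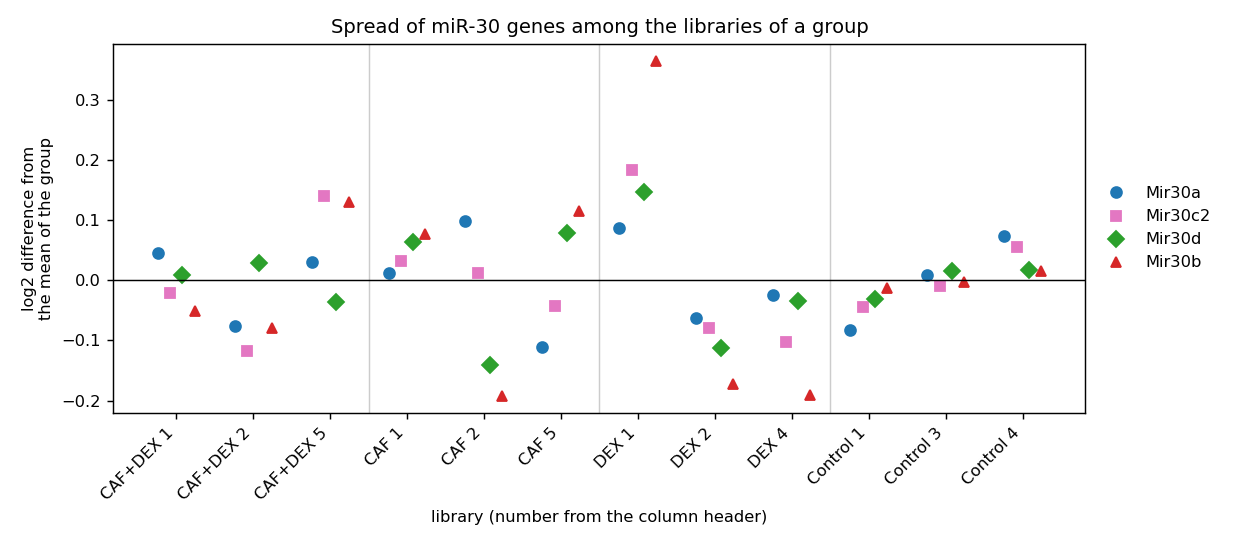
Log2 difference of each library from the mean of its group for Mir30a, Mir30c2, Mir30d and Mir30b (Mir30c1, which can share reads with Mir30c2, is left out). DEX library 1 is above its group mean for all 4 genes, by 0.36 for Mir30b, and the Control libraries lie closest to their mean for Mir30b.

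Levels of the 4 signals were compared pairwise over the 12 libraries (6 relations, permutation tests with Benjamini-Hochberg adjustment over the 6). Permutations ran over all 12 libraries whatever their group, so differences between groups enter the p-values, and r within groups was not tested. The 2 farthest libraries of a pair are those farthest from the median of its first-named gene only. Mir30c2 and Mir30b, on different chromosomes, had Pearson r = 0.82 (permutation p = 0.00127, adjusted 0.00762) and Spearman rho = 0.76 (p = 0.00573, adjusted 0.0115). Their r was 0.75 without the 2 farthest libraries, CAF+DEX library 5 and DEX library 4, and 0.78 within groups. DEX library 1, the highest for Mir30b, was kept there. The neighbours Mir30d and Mir30b had r = 0.76 (permutation p = 0.00397, adjusted 0.0119) and rho = 0.78 (p = 0.00427, adjusted 0.0115), with r = 0.55 without the 2 farthest libraries, CAF library 5 and DEX library 1, and 0.82 within groups. The neighbours Mir30a and Mir30c2 had r = 0.72 (permutation p = 0.00958, adjusted 0.0192) and rho = 0.77 (p = 0.00506, adjusted 0.0115), with r = 0.78 without the 2 farthest libraries and 0.69 within groups. The other 3 pairs did not pass. Mir30a had r = 0.12 and rho = 0.18 with Mir30d (permutation p = 0.700, adjusted 0.700, and p = 0.570, adjusted 0.570) and r = 0.34 and rho = 0.35 with Mir30b (permutation p = 0.273, adjusted 0.328, and p = 0.266, adjusted 0.331). Mir30c2 and Mir30d had r = 0.38 and rho = 0.34 (permutation p = 0.225, adjusted 0.328, and p = 0.276, adjusted 0.331). Without their 2 farthest libraries these pairs had r = 0.46, 0.60 and 0.60. All points share a library and its total, so a library's composition enters both values of a pair. Reads shared between 2 genes would enter both values too, and such sharing was not tested.

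Depth was compared with each of the 4 signals in the same way (4 relations). Pearson r with total reads was -0.62 for Mir30d (permutation p = 0.0319, adjusted 0.118), -0.56 for Mir30b (permutation p = 0.0589, adjusted 0.118), -0.45 for Mir30c2 (permutation p = 0.139, adjusted 0.149) and -0.44 for Mir30a (permutation p = 0.149, adjusted 0.149). Spearman rho was -0.52, -0.53, -0.51 and -0.52 in the same order of genes, with an adjusted permutation p = 0.0948 for each. Without the 2 libraries of most extreme depth, CAF library 1 and Control library 3, r was -0.63, -0.52, -0.36 and -0.32, and within groups it was -0.64, -0.61, -0.45 and -0.26. None passed after adjustment. The CAF libraries averaged 2991592 reads and the Control libraries 3243035 reads, and the part of depth in the CAF values was not tested.

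The features whose pattern over the 12 libraries was most like that of a member were taken by the highest Pearson r among 288 tested features outside the family, as a description. For Mir30b they were Mir17 (r = 0.86, rho = 0.76), Mir664-2 (r = 0.81, rho = 0.80) and Mir328 (r = 0.75, rho = 0.56). For Mir30c2 the same 3 came first, with r = 0.83, 0.81 and 0.79 and rho = 0.85, 0.83 and 0.71. For Mir30d they were Mir139 (r = 0.91, rho = 0.86), Mir324 (r = 0.77, rho = 0.61) and Mir291b (r = 0.68, rho = 0.56), the last at a mean of 2.92 FPKM. For Mir30a they were Mir3572 (r = 0.76, rho = 0.76, mean 3.72 FPKM), Mir598 (r = 0.71, rho = 0.72) and Mir201 (r = 0.62, rho = 0.43, mean 21.1 FPKM), of which 2 rest on few reads. All these r values are the highest of 288 over 12 libraries, were not tested and can be large for unrelated features.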

How the data were processed

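Liver RNA went into QIAseq microRNA libraries, whose reverse transcription primer holds unique molecular indices, per the labels' protocols. The sources used here do not state whether reads were collapsed by index. Per the submitters' processing notes the tools were cutadapt 3.7, STAR 2.7.11b and featureCounts (Subread 2.0.6), with build rn7. The authors deposited FPKM per gene; times length in kilobases, these summed to 1000000 per library.

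Totals were recovered as the reads that make each value a multiple of 0.01 read; 50.5 to 58.3% of values above 0 were whole reads. Reads need not be independent molecules. The 293 features above 0 in at least 3 libraries entered a limma-trend fit (limma 3.58.1 in R 4.3.3) of log2(FPKM + 3.80), all 12 libraries, with a mean for each of 4 groups. The pseudocount is the 10th percentile of the nonzero values. P-values, two-sided, were adjusted by Benjamini-Hochberg over the 293 features, threshold 0.05. The fit was tested on simulated data with independent noise per feature, which hold no shifts shared by the features of a library. Correlations used 100000 permutations, two-sided. Libraries carry the number of their column header, which gives the group but not the sample title.

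Named features follow a rule: all members, the 3 features most like each in pattern, neighbours within 50000 bases, the next in abundance, Mir384, called markers and up to 2 markers per list. Mir218-1, Mirlet7f-1os, Mir210, Mir219-2 and Mir3553 were chosen after their values were seen. Members and lists were chosen with earlier results of these data known. Alternatives covered pseudocount, filter, scaling, limma-voom on recovered reads, the samples fitted, summed Mir30c copies, each library left out and, added after seeing the data, a block on the header numbers.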

Additional observations from a re-analysis of the deposited data

How the results depend on the processing

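Of 857 member differences under alternatives, 759 kept their direction, 92 turned it, 6 were exactly 0 under quantile normalization and 0 reached an adjusted p under 0.05 by limma, as did 0 of 104 member F tests. The largest turned value was 0.17 in size. The cause of each change below was not tested. Quantile normalization sets values by rank, and Mir30a, Mir30c2 and Mir30c1 held ranks 8 to 9, 35 to 36 and 37 to 38. Under it, Mir30c2 had 0.061 and Mir30c1 0.11 in CAF and CAF+DEX against Control, as in DEX against Control. Under quantile normalization DEX against Control gave 0.061 (Mir30c2), 0.11 (Mir30c1), -0.070 (Mir30d) and 0.089 (Mir30b), CAF+DEX against Control -0.0287 (Mir30a) and -0.071 (Mir30d), CAF+DEX against DEX -0.0287 (Mir30a), the caffeine main effect -0.014 (Mir30a), and the dextromethorphan main effect -0.014 (Mir30a), 0.0306 (Mir30c2), 0.054 (Mir30c1) and 0.0057 (Mir30b). Under median-of-ratios scaling CAF+DEX against DEX gave 0.0054 (Mir30d) and the dextromethorphan main effect -0.0057 (Mir30a). These scalings moved the median of all features by at most 0.03.

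Leaving out each library in turn gave, for DEX against Control, -0.092 to 0.050 (Mir30c2), -0.094 to 0.052 (Mir30c1), -0.039 to 0.090 (Mir30d) and -0.19 to 0.092 (Mir30b). For CAF+DEX against CAF it gave -0.081 to 0.048 (Mir30c2), -0.082 to 0.053 (Mir30c1), -0.11 to 0.0020 (Mir30d) and -0.11 to 0.042 (Mir30b). For CAF+DEX against DEX it gave -0.020 to 0.054 (Mir30a) and -0.074 to 0.055 (Mir30d), for the interaction -0.080 to 0.081 (Mir30c2), -0.081 to 0.084 (Mir30c1), -0.14 to 0.0024 (Mir30d) and -0.11 to 0.17 (Mir30b), and for the caffeine main effect -0.011 to 0.054 (Mir30d). For the dextromethorphan main effect it gave -0.023 to 0.029 (Mir30a), -0.052 to 0.023 (Mir30c2), -0.052 to 0.026 (Mir30c1), -0.038 to 0.027 (Mir30d) and -0.10 to 0.038 (Mir30b).

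Counts of called features moved too, over 293 features, or 444 under no filter and 187 under the stricter filter. In CAF against Control 2 were called, with 4 under quantile normalization, 0 with only the 6 libraries compared and 0 to 10 with a library left out. In CAF+DEX against Control 0 were called, with 2 under no filter, 2 under the stricter filter and 1 under quantile normalization. CAF+DEX against DEX had 0, with 1 under quantile normalization. The caffeine main effect had 2, with 0 under no filter, 10 under the stricter filter, 5 under quantile normalization, 11 under median-of-ratios scaling, 4 with limma-voom and 1 to 10 with a library left out. DEX against Control, CAF+DEX against DEX and the interaction had 0 to 1 with a library left out. The F test had 1, with 0 under no filter and 0 to 4 with a library left out. With 3 libraries per group, member differences inside the printed intervals could not be resolved.

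A replicate block on the numbers in the column headers was added after seeing the data. These numbers could not be matched to the sample titles, so a block on the title numbers was not run. Libraries of different groups with the same header number had a median r of -0.02 between their deviations (11 pairs, range -0.13 to 0.10). Pairs with different numbers ran from -0.18 to 0.25. Of 11 libraries with a partner, 0 correlated best with their own number. What the numbers stand for is not stated, and these few pairs cannot tell whether a number marks a shared batch. With the block, which leaves 4 residual degrees of freedom, 0 features were called in CAF against Control, 1 in DEX against Control, 0 for the caffeine main effect and 0 by the F test. DEX against Control gave 0.014 (Mir30c2), 0.012 (Mir30c1) and 0.037 (Mir30b), and the dextromethorphan main effect 0.0015 (Mir30c2), 0.0011 (Mir30c1), 0.020 (Mir30d) and 0.011 (Mir30b).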
